A study of Homo sapiens with 48 samples.

Results

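The transcripts of 9 leukocyte adhesion molecules were followed in THP-1 cells, a human acute monocytic leukemia line, after 12 h with 1 of 12 chemicals. The genes were the immunoglobulin-family ligands ICAM1 and ICAM3, the integrin chains ITGAL, ITGAM, ITGAX, ITGB2 and ITGA4, the selectin ligand SELPLG and the hyaluronan receptor CD44. They were chosen by symbol, with earlier results of these data known. They make up 9 of the 24462 symbols in the count files and 9 of the 15642 genes tested. ICAM1 rose about 105-fold with lipopolysaccharide (LPS) and 13.2-fold with mercuric chloride. ITGAL, the alpha chain of the integrin that binds it, rose with LPS and tofacitinib and fell with dexamethasone, prednisolone and mercuric chloride. CD44 rose and SELPLG fell with LPS and with mercuric chloride.

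A monocyte leaves the blood in steps: selectins on the vessel wall catch PSGL-1, the product of SELPLG, the cell rolls, its integrins are switched to a binding form, and these hold on to ligands of the ICAM and VCAM families. The chains made by ITGAL, ITGAM and ITGAX each reach the surface only in a pair with the shared beta chain made by ITGB2, while ITGA4 pairs with the beta chains of ITGB1 or ITGB7. CD44 binds hyaluronan of the matrix. ICAM1, also called CD54, is induced through the transcription factor NF-kB by bacterial products and cytokines, and with CD86 it is the surface readout of a skin sensitization test that uses THP-1 cells.

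The groups of 3 libraries each were LPS, a bacterial cell wall component; mercuric chloride; the glucocorticoids dexamethasone and prednisolone; the JAK inhibitor tofacitinib; the calcineurin inhibitors cyclosporine and tacrolimus; the nucleoside analogues aciclovir and ribavirin; the detergent sodium lauryl sulfate; genistein, an isoflavone; and benzoic acid. They were compared with 6 libraries of cells kept with the vehicle dimethyl sulfoxide (DMSO), and 6 further libraries had neither chemical nor vehicle. Both kinds of control come as series 1 and series 2 with 3 libraries each, and the labels do not tie a chemical to a series. Titles of the vehicle libraries give 0.1, 0.2 and 0.3% DMSO in series 1 and 0.4, 0.5 and 0.6% in series 2, whereas the protocol gives 0.1%, so that the amount of solvent and the library cannot be told apart. Chemicals were given at the concentration called CV90, commonly the one that leaves 90% of the cells viable, with no value in the sources used here. THP-1 is 1 leukemia line, not a set of donors.

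Levels are CPM, the counts of a gene for each mega-count of the scaled library. A gene is called, or said to have risen or fallen, only where its change had the same sign against vehicle series 1 and against vehicle series 2 and the larger p-value, adjusted over all genes tested, was under 0.05. Fold changes are means of the log2 values against both series, with their standard error (SE). Library totals were 5.95 to 11.5 M counts (M, mega-counts), lowest with mercuric chloride (6.41 ± 0.508 M, SD, n = 3). Summed CPM of 10 monocyte markers was 811 to 1413 over the 48 libraries, and all 10 were detected; it was 1317 to 1387 with LPS, 811 to 884 with mercuric chloride, 897 to 974 with dexamethasone and 899 to 910 with prednisolone, against 1148 to 1211 with vehicle. The summed level of 7 T cell markers was 32.7 to 38.7 CPM with LPS and 33.8 to 40.6 CPM with mercuric chloride, against 2.42 to 6.13 CPM with vehicle; IL7R made up most of it, and CD3E was at 0 in all 48 libraries. The summed level of 5 fibroblast markers was 29.6 to 32.2 CPM with mercuric chloride and 3.53 to 6.73 CPM with LPS, against 0 to 1.14 CPM with vehicle. COL1A1 made up most of the mercuric chloride sum, and COL1A2 was at most 0.336 CPM in any library. DCN and LUM had their highest group mean with LPS. That of 7 endothelial markers, nearly all PECAM1, was 54.2 to 61.0 CPM with mercuric chloride and 171 to 191 CPM with LPS, against 134 to 183 CPM with vehicle. For 5 epithelial markers it was 1.85 to 17.0 CPM with mercuric chloride, against 0.630 to 1.74 CPM with vehicle, and for 4 erythroid markers 2.02 to 6.16 CPM, against 0.183 to 0.667 CPM. The part of other cell types in the results was not tested, and in bulk RNA fewer cells of a type and less RNA per cell cannot be told apart.

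Among the 108 pairs of a gene and a chemical, 15 were called (13.9%), 8 higher and 7 lower. Over all genes and chemicals 5.31% were called, 2.91% higher and 2.4% lower. The 12 comparisons share their vehicle libraries. Because the genes were chosen with earlier results of these data known, the shares set side by side are a description, not a test. With LPS 5 of the 9 rose and 1 fell, where 7.2% of all genes were called, 4.56% higher and 2.64% lower. With mercuric chloride 2 rose and 3 fell, where 41.9% of all genes were called, 21.8% higher and 20.1% lower. With dexamethasone 2 fell (8.57% of all genes called, 3.58% lower), with prednisolone 1 fell (1.96%, 0.633% lower), and with tofacitinib 1 rose (2.32%, 1.09% higher). The 5 calls with mercuric chloride therefore stand beside a change in a large share of all genes. No member was called with cyclosporine (0.831% of all genes called), tacrolimus (0.0575%), sodium lauryl sulfate (0.307%), aciclovir (0.237%), ribavirin (0.147%), genistein (0.237%) or benzoic acid (0.032%). ITGAL was called with 5 chemicals, ICAM1, CD44, SELPLG and ITGA4 with 2 each, ITGAM and ITGB2 with LPS, and ICAM3 and ITGAX with none.

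**Figure D1:**
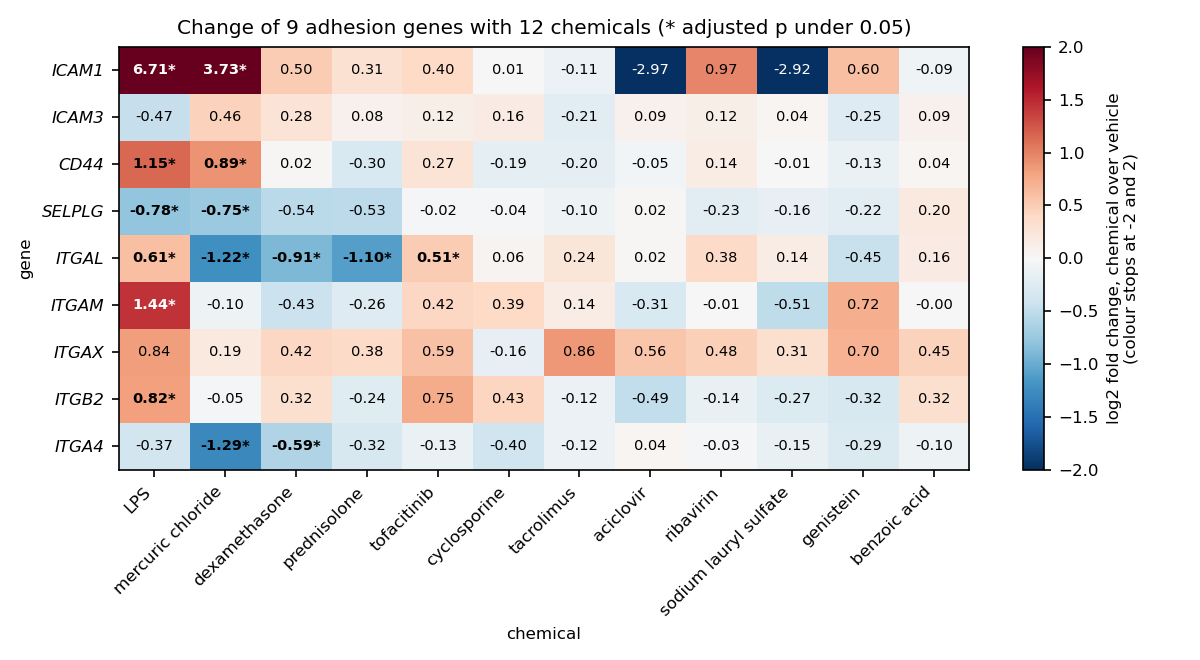
Mean log2 fold change of each of the 9 genes (rows) with each of the 12 chemicals (columns) over vehicle, printed in each cell, with an asterisk and bold type where the adjusted p was under 0.05. The colour scale stops at -2 and 2, and the ICAM1 values for aciclovir and sodium lauryl sulfate rest on 1 count each; asterisks lie in the columns of LPS, mercuric chloride, dexamethasone, prednisolone and tofacitinib.

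The RefSeq sequence of the 250 bases before the start of ICAM1 and CD44 is shown because these were the members called higher with both LPS and mercuric chloride. The ICAM1 stretch is chr19:10270870-10271119 (plus strand, GRCh38.p14), and the CD44 stretch is chr11:35138921-35139170 (plus strand, same build). Capitals mark a match to GGNNNTTCC, searched on both strands, a form of the site that NF-kB binds. The counts themselves come from another build (hg19), and these coordinates are RefSeq's.
ICAM1: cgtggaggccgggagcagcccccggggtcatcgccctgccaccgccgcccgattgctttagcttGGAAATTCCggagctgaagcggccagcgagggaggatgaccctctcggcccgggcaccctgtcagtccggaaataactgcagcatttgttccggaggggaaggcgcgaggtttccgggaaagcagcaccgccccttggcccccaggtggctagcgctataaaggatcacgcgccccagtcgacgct
CD44: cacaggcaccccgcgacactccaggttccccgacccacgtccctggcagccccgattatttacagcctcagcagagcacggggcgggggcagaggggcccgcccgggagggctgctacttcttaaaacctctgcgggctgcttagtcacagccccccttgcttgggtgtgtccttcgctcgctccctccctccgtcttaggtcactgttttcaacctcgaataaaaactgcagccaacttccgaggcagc
In ICAM1 the match reads GGAAATTCC, is found on both strands at the same place and begins 186 bases before the start. GGNNNTTCC occurs in 17.1% and GGAAATTCC in 0.413% of 35116 promoter windows of the same length. The CD44 window holds no match to these letters. A match describes the sequence alone, since binding was not measured here. Promoter sequences were matched for 5 of the 9 members, and among these only ICAM1 held a match to GGNNNTTCC. The part of NF-kB in the changes of ICAM1 and CD44 was not tested.

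ICAM1 was close to undetected in unstimulated THP-1 cells and was clearly detected after LPS. The LPS libraries held 46.1, 33.9 and 30.8 CPM (466, 392 and 310 counts), against 0 to 0.647 CPM with vehicle (median 0.362, 0 to 6 counts a library, n = 6). No LPS library came near a vehicle library. The means were 37.0 ± 8.09 CPM with LPS (SD, n = 3) and 0.355 ± 0.207 CPM with vehicle (SD, n = 6), a log2 fold change of 6.71 (SE 0.43, adjusted p = 2.47e-12). The 1168 counts with LPS and 20 with vehicle give a ratio of 107 with a 95% counting interval of 69.0 to 176, which covers counting error only.

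Mercuric chloride, the chloride salt of mercury and a contact sensitizer, raised ICAM1 to a lower level. Its libraries held 4.41, 6.32 and 3.30 CPM (23, 29 and 16 counts), all above every vehicle library and below every LPS library. The log2 fold change was 3.73 (SE 0.51, adjusted p = 1.53e-05), and the counting ratio was 13.5 (95% interval 8.09 to 23.4). In the other 14 groups the 42 libraries held 0 to 10 counts, at most 1.01 CPM. Of these, 9 held 0, a result that allows up to 3 counts at their depth. ICAM1 therefore passed the filter on low counts through the LPS and mercuric chloride libraries, and its inclusion depends on them; without any filter the LPS value was 6.71.

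The order of ICAM1 levels was LPS, mercuric chloride, ribavirin (0.682 ± 0.265 CPM) and genistein (0.522 ± 0.217 CPM), and neighbours overlapped from ribavirin down to untreated series 2. At the low end, aciclovir and sodium lauryl sulfate had 1 count each in 3 libraries, against 20 counts in the 6 vehicle libraries. The ratio to vehicle was 0.0930 for aciclovir (95% counting interval 0.00224 to 0.581) and 0.0975 for sodium lauryl sulfate (0.00235 to 0.609). Neither was called (adjusted p = 0.961 and 1), although aciclovir was called against vehicle series 2 alone (-3.38, adjusted p = 0.0387). Dexamethasone libraries held 0, 0.378 and 1.01 CPM and prednisolone libraries 0.897, 0.312 and 0.0888 CPM. Both groups overlapped the vehicle libraries and neither was called (adjusted p = 1 for each).

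**Figure D2:**
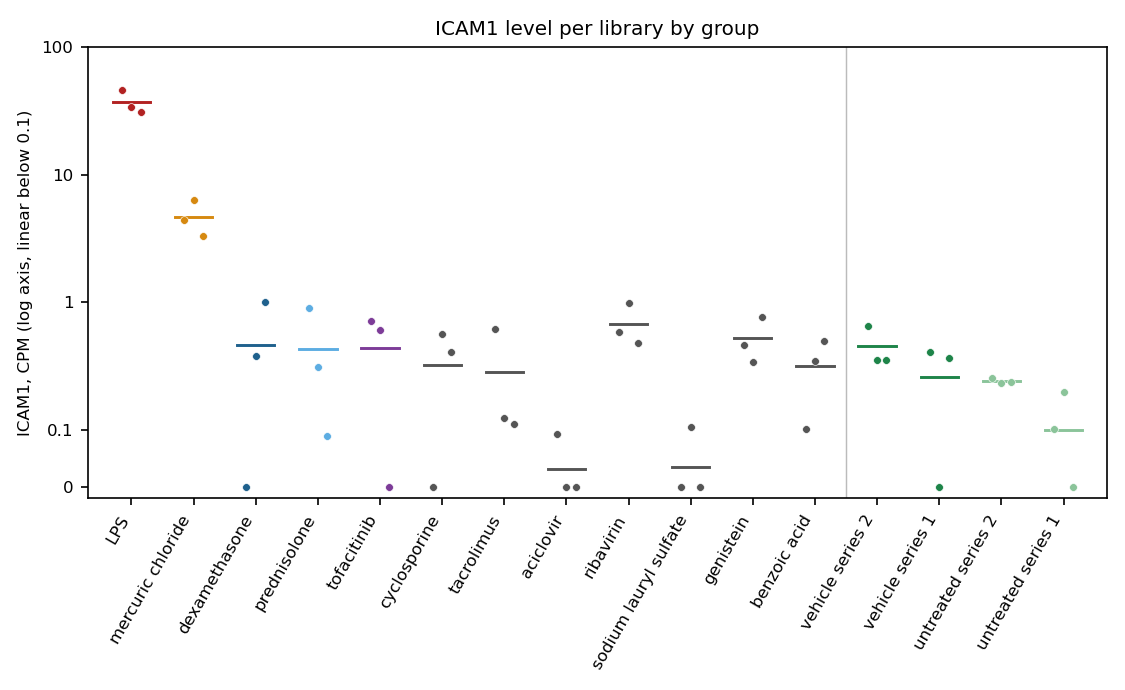
ICAM1 level in CPM in each library (points; the horizontal bar is the group mean) for the 12 chemicals, left of the vertical line, and the 4 control groups, right of it; the axis is logarithmic above 0.1 CPM and linear below it. LPS libraries lie at 30.8 to 46.1 CPM and mercuric chloride libraries at 3.30 to 6.32 CPM, while no other library exceeds 1.01 CPM.

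ICAM3, which resting leukocytes carry and the same integrin binds, was not called with any chemical. Its LPS libraries held 12.3, 12.7 and 12.5 CPM and its mercuric chloride libraries 26.1, 20.5 and 24.8 CPM, against 13.7 to 19.5 CPM with vehicle (median 17.9). LPS libraries were all below and mercuric chloride libraries all above the vehicle libraries, but the changes of -0.47 (SE 0.14, adjusted p = 0.207) and 0.46 (SE 0.14, adjusted p = 0.0647) missed the threshold. With mercuric chloride the call depends on the method: it was made with median-of-ratios scaling (0.54, adjusted p = 0.0259), with DESeq2 (adjusted p = 0.0258) and in a fit of the compared libraries alone (adjusted p = 0.0222).

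ITGAL, which pairs with ITGB2 to form the integrin LFA-1, was called with more of the chemicals than any other member. LPS libraries held 162, 161 and 152 CPM and tofacitinib libraries 154, 154 and 135 CPM, against 90.9 to 117 CPM with vehicle (median 105). Both groups lay above all 6 vehicle libraries. The log2 fold change was 0.61 with LPS (SE 0.10, adjusted p = 0.000886) and 0.51 with tofacitinib (SE 0.10, adjusted p = 0.0299). The tofacitinib call is the less secure: it was lost without tofacitinib replicate 1 or 2, or vehicle series 1 replicate 1 or 2, with adjusted p of 0.150, 0.131, 0.171 and 0.102.

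Both glucocorticoids lowered ITGAL. Dexamethasone libraries held 46.5, 47.4 and 72.3 CPM and prednisolone libraries 49.1, 46.4 and 49.8 CPM, all below the lowest vehicle library at 90.9 CPM. The log2 fold change was -0.91 with dexamethasone (SE 0.10, adjusted p = 1.16e-06) and -1.10 with prednisolone (SE 0.11, adjusted p = 1.95e-08). Mercuric chloride libraries, at 42.7, 47.1 and 44.0 CPM, were the lowest group of all, with a change of -1.22 (SE 0.11, adjusted p = 1.60e-10). In these 3 groups the summed monocyte markers, too, were below every vehicle library, and their part in the ITGAL and ITGA4 results was not tested. Genistein libraries, at 80.2, 74.2 and 74.1 CPM, also lay below every vehicle library, but the change of -0.45 was not called (adjusted p = 0.329); it was called in the fit of the compared libraries alone (adjusted p = 0.000464).

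ITGAM pairs with ITGB2 to form Mac-1, a receptor for complement and fibrinogen, and it was called, higher, with LPS and with none of the other chemicals. LPS libraries held 25.8, 27.6 and 22.5 CPM, against 6.93 to 13.0 CPM with vehicle (median 9.47). These are the highest libraries of the series for this gene, with no overlap. The fitted change was 1.44 on the log2 scale (SE 0.18, adjusted p = 7.94e-05). Genistein came next in order at 15.4 ± 3.73 CPM (SD, n = 3), with libraries that overlapped the vehicle libraries and a change of 0.72 that was not called (adjusted p = 0.864).

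ITGB2, the shared beta chain, rose with LPS, but the size of the change rests in part on 1 library. LPS libraries held 1280, 1685 and 2310 CPM, against 731 to 1199 CPM with vehicle (median 1049.9). All were above the vehicle libraries, replicate 3 furthest. Replicate 1 lay within the range of the untreated series 2 libraries, 1252 to 1310 CPM. The change was 0.82 (SE 0.14, adjusted p = 0.0136), and it was 0.57 and no longer called without LPS replicate 3 (adjusted p = 0.355), nor was it called without vehicle series 2 replicate 1 (0.81, adjusted p = 0.0555). The antisense transcript ITGB2-AS1 overlaps this gene on the other strand, and whether counting used strand is not given in the sources used here, so the reads cannot be told apart with certainty; ITGB2-AS1 rose by 2.77 with LPS (SE 0.25, adjusted p = 7.82e-09), to 25.6 ± 3.30 CPM, against 3.87 ± 0.472 CPM in vehicle series 2 and 3.61 ± 0.284 CPM in vehicle series 1 (SD, n = 3 each). Tofacitinib libraries held 1365, 1831 and 1835 CPM of ITGB2, all above the vehicle libraries, with a change of 0.75 that just missed the threshold (adjusted p = 0.0827) and passed it without a filter (adjusted p = 0.0103) and among the compared libraries alone (adjusted p = 0.000263).

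ITGAX, the alpha chain of a further complement receptor with ITGB2 and a common marker of dendritic cells, was the member whose controls differed most. Control series 2 held 14.2 to 19.8 CPM (median 15.8, n = 6), against 27.5 to 37.8 CPM in control series 1 (median 30.8, n = 6), so the series did not overlap. With LPS the libraries held 37.4, 40.9 and 38.8 CPM and with tacrolimus 42.8, 38.0 and 37.7 CPM, both above all vehicle libraries. The change with LPS was 1.34 against series 2 and 0.34 against series 1, and it was not called (adjusted p = 0.168), but was in the fit of the compared libraries alone (adjusted p = 0.0373). Tacrolimus gave 1.36 and 0.36 and was not called either (adjusted p = 1). Cyclosporine libraries, at 20.2, 18.9 and 19.5 CPM, lay between vehicle series 2 and vehicle series 1.

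ITGA4, whose pair with ITGB1 binds VCAM1 and fibronectin, fell with mercuric chloride and dexamethasone. Mercuric chloride libraries held 35.8, 27.2 and 30.3 CPM and dexamethasone libraries 46.5, 48.5 and 56.5 CPM, against 61.2 to 91.9 CPM with vehicle (median 76.8). Both groups were below every vehicle library. The dexamethasone libraries overlapped the untreated series 2 libraries, at 55.0 to 65.8 CPM. On the log2 scale the change was -1.29 with mercuric chloride (SE 0.10, adjusted p = 2.51e-11) and -0.59 with dexamethasone (SE 0.09, adjusted p = 0.00826). Fitted on the compared libraries alone, dexamethasone gave -0.61 with an adjusted p of 0.0552. Prednisolone libraries, at 59.5, 68.8 and 55.7 CPM, overlapped the vehicle libraries (-0.32, adjusted p = 1).

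SELPLG fell with LPS and with mercuric chloride. LPS libraries held 15.3, 20.6 and 19.0 CPM and mercuric chloride libraries 21.1, 18.3 and 16.9 CPM, against 26.6 to 36.1 CPM with vehicle (median 32.3), without overlap. The log2 fold change was -0.78 with LPS (SE 0.12, adjusted p = 0.00122) and -0.75 with mercuric chloride (SE 0.13, adjusted p = 0.00101). Dexamethasone libraries (21.1, 20.5 and 23.6 CPM) and prednisolone libraries (22.0, 23.0 and 20.8 CPM) were also below all vehicle libraries. Their changes of -0.54 and -0.53 were not called (adjusted p = 0.0930 and 0.293), and both were called with vehicle and untreated libraries together as the control (adjusted p = 0.00614 and 0.0201).

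CD44 rose with the chemicals that raised ICAM1. LPS libraries held 141, 130 and 135 CPM and mercuric chloride libraries 107, 110 and 123 CPM, against 55.3 to 68.8 CPM with vehicle (median 59.9). The 3 groups were separate. The change was 1.15 on the log2 scale with LPS (SE 0.09, adjusted p = 6.27e-11) and 0.89 with mercuric chloride (SE 0.09, adjusted p = 2.29e-08). Leaving out the scaling shifted log2 changes with mercuric chloride by about -0.40, and CD44 gave 0.49, still called. Tofacitinib came next at 73.7 ± 5.18 CPM (SD, n = 3), with all libraries above the vehicle libraries and a change of 0.27 that was not called (adjusted p = 0.581).

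**Figure D3:**
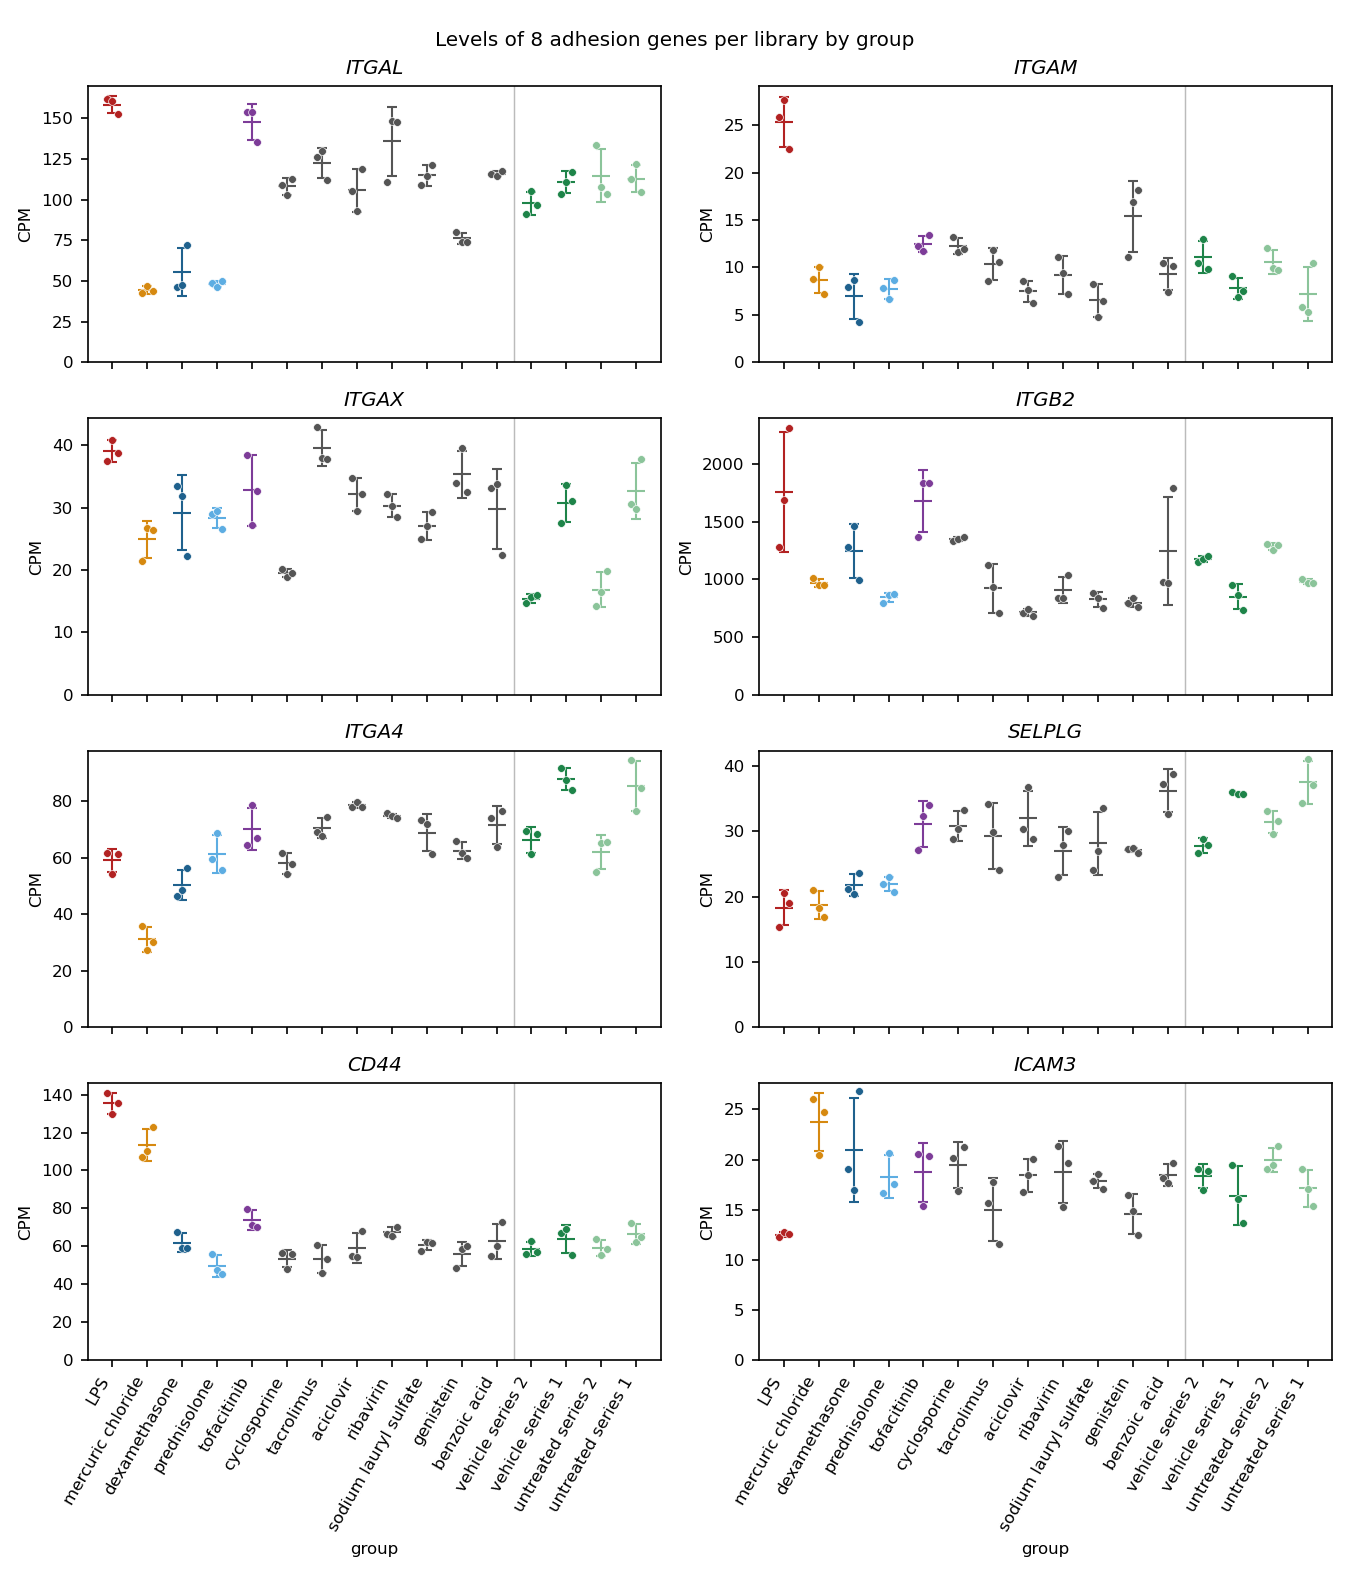
Level in CPM of the other 8 genes in each library (points), with the group mean and its SD (bars, n = 3), for the 12 chemicals left of the vertical line and the 4 control groups right of it. ITGAL is low with mercuric chloride, dexamethasone and prednisolone, CD44 is high with LPS and mercuric chloride, and ITGAX differs between control series 2 and control series 1.

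The control series themselves differed in 5 of the 9 genes, where 30.1% of all genes tested differed. ITGAX was lower in series 2, at 16.1 ± 1.98 CPM against 31.7 ± 3.57 CPM in series 1 (SD, n = 6 each; log2 difference -0.98, adjusted p = 5.94e-10). ITGA4 (-0.43, adjusted p = 4.99e-06) and SELPLG (-0.31, adjusted p = 0.00694) were also lower in series 2. ITGB2 (0.43, adjusted p = 0.00282) and ITGAM (0.53, adjusted p = 0.0111) were higher there, the second lost without untreated series 1 replicate 2 (0.44, adjusted p = 0.0512). ICAM1, ICAM3, ITGAL and CD44 did not pass the threshold (adjusted p of 0.339, 0.221, 0.512 and 0.163). Against 1 vehicle series alone, the calls over the 12 chemicals numbered 41 with series 2 and 31 with series 1. The share of all genes called against 1 series alone is not given here, so these counts cannot be set against it.

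The vehicle itself changed none of the 9 genes detectably. Vehicle against untreated libraries, edgeR called 0 of 9 (0% of all genes), with 0 members at an unadjusted p under 0.05, and DESeq2 and limma-voom also called 0. The log2 differences were between -0.17 (ITGB2, 95% interval -0.40 to 0.06) and 1.06 (ICAM1, -0.41 to 2.52), and the interval for ICAM1 is wide because of its low counts. A difference of the vehicle effect between series 2 and series 1 was called for 0 of 9 (0% of all genes), with 0 members at an unadjusted p under 0.05.

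Chemicals of 1 class were compared directly in 3 pairs, at doses that are not given and may differ. Dexamethasone and prednisolone, glucocorticoids that differ in a fluorine and a methyl group, differed in 1 of 9 genes (9.23% of all genes). ITGB2 libraries held 1282, 1457 and 997 CPM with dexamethasone and 797, 865 and 869.9 CPM with prednisolone, a log2 difference of 0.56 (95% interval 0.24 to 0.89, adjusted p = 0.0215). It was lost without dexamethasone replicate 2 or prednisolone replicate 1 or 3 (adjusted p of 0.0840, 0.0879 and 0.0596) and among those 6 libraries alone (adjusted p = 0.242). ITGB2 also differs between the control series, in the same direction as series 2 minus series 1 (0.43). Which control series belongs to either glucocorticoid is not given, so chemical and series cannot be told apart for this gene. For ITGAL the difference was 0.20 (-0.04 to 0.44), for SELPLG -0.01 (-0.28 to 0.26) and for ICAM1 0.20 (-1.35 to 1.74), and none of these passed.

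Cyclosporine, a cyclic peptide, and tacrolimus, a macrolide, differed in 3 of 9 genes (20.2% of all genes). ITGAX was lower with cyclosporine, at 19.5 ± 0.651 CPM against 39.5 ± 2.87 CPM with tacrolimus (SD, n = 3 each; log2 difference -1.02, 95% interval -1.31 to -0.72, adjusted p = 1.03e-06). ITGB2 was higher by 0.55 (0.22 to 0.87, adjusted p = 0.0115) and ITGA4 lower by -0.28 on the log2 scale (-0.49 to -0.08, adjusted p = 0.0428). The ITGB2 difference was lost without tacrolimus replicate 3 (0.39, adjusted p = 0.140), and the ITGA4 difference without any of 5 of the 6 libraries (adjusted p up to 0.164). All 3 genes also differ between the control series, in the same direction as series 2 minus series 1. Which control series belongs to either chemical is not given, so chemical and series cannot be told apart here.

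Aciclovir and ribavirin, which carry different bases and sugar parts, differed in 2 of 9 genes (5.76% of all genes). ICAM1 had 1 count with aciclovir and 22 with ribavirin, a ratio of 0.0474 (95% counting interval 0.00115 to 0.293) and a fitted log2 difference of -3.94 (adjusted p = 0.0287). The fitted value was -5.71 without aciclovir replicate 1, the library that held the 1 count, which leaves aciclovir at 0 and a value that depends on the prior count, and -3.50 without aciclovir replicate 2. Limma-voom did not call it (adjusted p = 0.0962), nor did 4 of the 6 fits that left out 1 library (aciclovir replicate 2 or 3, ribavirin replicate 2 or 3). In a fit of the aciclovir and ribavirin libraries alone, ICAM1 did not pass the filter on low counts and had no value. ITGAL was lower with aciclovir by -0.36 on the log2 scale (-0.59 to -0.13, adjusted p = 0.0467), a difference lost without aciclovir replicate 1 or 2 or ribavirin replicate 2 or 3 (adjusted p up to 0.247). With the replicate number as a block its adjusted p was 0.0524.

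**Figure D4:**
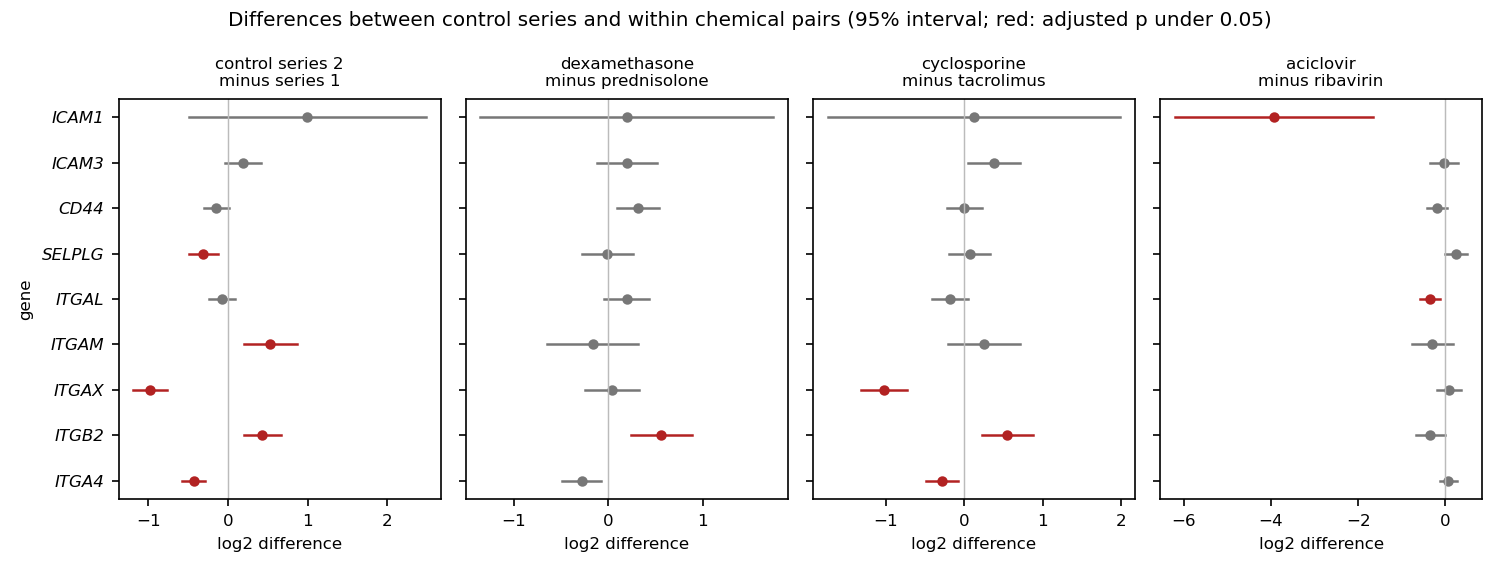
Log2 difference of each of the 9 genes with its 95% interval, for control series 2 minus series 1 and for 3 pairs of chemicals, each panel with its own horizontal scale; red marks an adjusted p under 0.05. The ITGAX, ITGB2 and ITGA4 differences between cyclosporine and tacrolimus have the sign of those between the control series, and the interval of ICAM1 is wide throughout.

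Among all 16 groups, each of the 9 genes differed at an adjusted p between 3.13e-23 (ICAM1) and 0.00122 (ICAM3), where 76.4% of all genes did. Group membership took up 95.3% of the variance of log2 CPM for ITGAL, 92.2% for ITGA4, 92.1% for CD44 and 63.8% for ICAM3, the lowest of the 9. With 16 groups of 3 libraries, part of such a share arises without any difference between groups, and it was not subtracted. Across the 16 group means, ICAM1 and CD44 had a Pearson r of 0.88, and of -0.00 over the 14 groups without LPS and mercuric chloride. ITGA4 and SELPLG had 0.75 over 16 and 0.73 over 14 groups. These values describe group means that share 1 scaling, with no test.

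The genes most like each member over the 16 group means, among 12309 candidates, were named by the same measure. Nearest to ICAM1 were TNFRSF9 (r = 0.97), a costimulatory receptor, BCL3 (0.96), a nuclear partner of NF-kB, IL32 (0.96), CCL4L1 (0.96) and UGCG (0.95). ICAM1 held 0 to 10 counts a library outside LPS and mercuric chloride. Its r values therefore rest largely on those groups, and no values without them are given for these genes. Nearest to CD44 were SOX4 (0.94), CD83 (0.94), a marker of mature dendritic cells, and BTG2 (0.93). ITGA4 was nearest to KIAA0930 (0.97), RCSD1 (0.97) and CXCR2 (0.97), a chemokine receptor, and ITGAL to EPHB1 (0.91), IGSF6 (0.90) and LINC00997 (0.88). SELPLG was nearest to THBS4 (0.92), ITGAX to KIAA0430 (0.95), ITGB2 to ATAD2B (0.90), ITGAM to IL21R (0.87) and ICAM3 to TNNI3 (0.91).

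Of the genes through which NF-kB is formed or restrained, with CD86 beside them, 6 of 7 rose with LPS and none fell. Among all genes, 4.56% rose with LPS and 2.64% fell. This list, too, was chosen with earlier results of these data known. NFKBIA, the inhibitor that NF-kB itself induces, reached 973 ± 11.0 CPM with LPS against 126 ± 7.69 CPM with vehicle (log2 fold change 2.94, SE 0.07, adjusted p = 5.00e-28). BIRC3 (4.02), TNFAIP3 (3.90), RELB (3.18), NFKB2 (3.11) and NFKB1 (1.57) were the others. The median of the 7 was 3.11, against -0.01 over all genes. With mercuric chloride RELB (2.68) and NFKB2 (1.38) rose and NFKB1 fell by 1.13, 3 of 7 where 41.9% of all genes were called, while NFKBIA (0.11) was not called. With dexamethasone NFKBIA (1.85), TNFAIP3 (1.67) and BIRC3 (1.71) rose, and with prednisolone NFKBIA (1.57) and TNFAIP3 (1.14). The share of all genes called was 8.57% with dexamethasone and 1.96% with prednisolone. CD86 was low throughout: it held 1.37 ± 0.613 CPM with LPS (43 counts) and 1.63 ± 0.352 CPM with mercuric chloride (24 counts), against 41 counts in the 6 vehicle libraries, and it was called with no chemical.

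**Figure D5:**
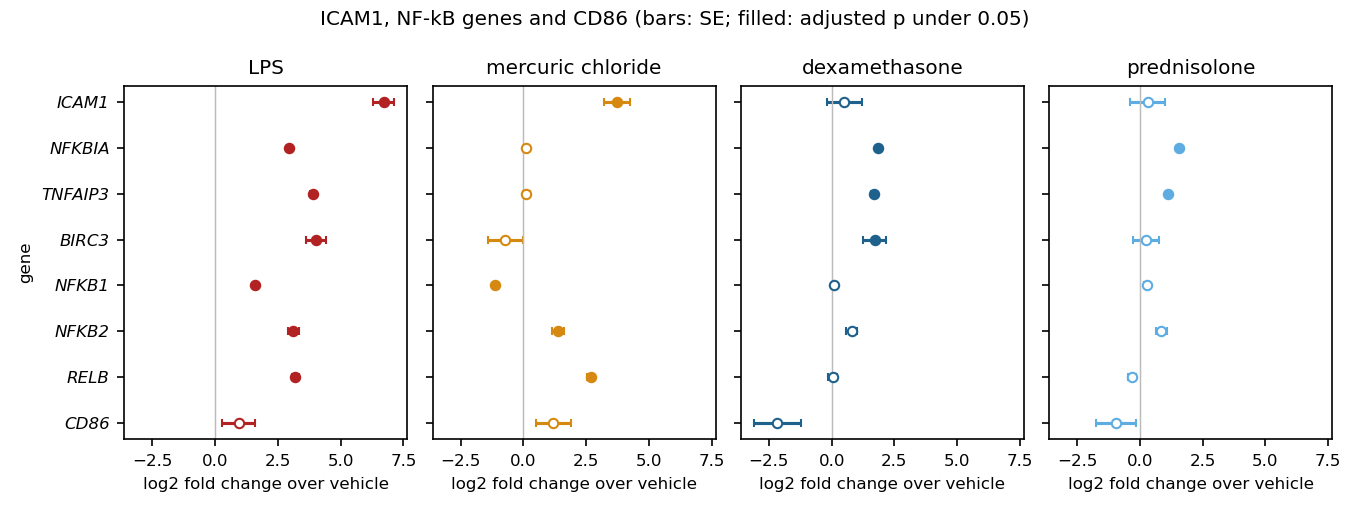
Log2 fold change over vehicle with its SE (bars) of ICAM1, 6 genes of the NF-kB pathway and CD86, with LPS, mercuric chloride, dexamethasone and prednisolone; filled points have an adjusted p under 0.05. ICAM1 is filled with LPS (6.71) and mercuric chloride (3.73), NFKBIA with LPS, dexamethasone and prednisolone, and CD86 with none.

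Of 27 other adhesion receptors and ligands 20 were tested, and 5 rose with LPS, where 4.56% of all genes rose. VCAM1, the ligand of the ITGA4 integrin, had 163 counts with LPS, against 0 in vehicle series 2 and 6 in vehicle series 1 (adjusted p = 0.000770). The counting ratio to all 6 vehicle libraries was 49.8 (95% interval 22.4 to 138). VCAM1 passed the filter on low counts through the LPS libraries, since no other library exceeded 0.641 CPM, and without a filter its adjusted p was 0.00136. ITGA6 (1.11), CD58 (1.09), PVR (0.38) and CD47 (0.30) were the others. With mercuric chloride 9 of 20 fell and 1 rose, where 20.1% of all genes were lower and 21.8% higher. JAM3 (-1.71), ICAM2 (-1.41, on 16 counts), PECAM1 (-1.05) and CD47 (-0.89) were lower, and ITGA5, the fibronectin receptor chain, was higher (0.44). Dexamethasone raised F11R (0.79), ITGA5 (0.55) and PECAM1 (0.42) and lowered CD47 (-0.30), and prednisolone lowered CD47 (-0.35). The share of all genes called was 8.57% with dexamethasone and 1.96% with prednisolone. The list medians were 0.16 with LPS, -0.33 with mercuric chloride and 0.13 with dexamethasone, against -0.01, -0.01 and -0.00 over all genes.

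Of 17 genes of integrin activation and its link to the cytoskeleton, LPS raised FERMT3 and lowered RASGRP2, where 7.2% of all genes were called. FERMT3, the kindlin that blood cells need for beta chain activation, reached 321 ± 58.8 CPM with LPS against 120 ± 18.4 CPM with vehicle (1.43, SE 0.16, adjusted p = 2.28e-06). RASGRP2, which activates Rap1, fell to 30.6 ± 1.52 CPM with LPS against 127 ± 14.6 CPM with vehicle (-2.05, SE 0.12, adjusted p = 1.23e-16), and it also fell with dexamethasone (-0.72) and prednisolone (-0.62). The adaptors SKAP2 (0.52 and 0.48) and FYB (0.49 and 0.38) rose with dexamethasone and prednisolone, and ACTN1 (0.45) rose with dexamethasone. The share of all genes called was 8.57% with dexamethasone and 1.96% with prednisolone. With mercuric chloride 4 rose, among them EZR (0.87), CYTH1 (0.69) and MSN (0.54), and 6 fell, among them RASSF5 (-0.85), SKAP2 (-0.73) and VCL (-0.66), a share of the 17 to be read beside the 41.9% of all genes called.

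Of 8 enzymes that give selectin ligands their sugars and sulfates, none was called with LPS, where 7.2% of all genes were. TPST1, a tyrosine sulfotransferase, rose with both glucocorticoids, to 14.2 ± 5.73 CPM with dexamethasone (1.94, adjusted p = 0.00114) and 13.8 ± 1.68 CPM with prednisolone (1.90, adjusted p = 0.00390), against 3.77 ± 1.42 CPM with vehicle. With mercuric chloride, where 41.9% of all genes were called, FUT4 (-1.79), ST3GAL6 (-1.17) and GCNT1 (-1.04) fell, and TPST2 (1.21) and B4GALT1 (0.60) rose. Of 8 sheddases and matrix partners, LPS raised MMP9 (5.85), SPP1 (1.86), a ligand of CD44 and integrins, and MMP14 (1.30). Among all genes, 4.56% rose with LPS. Mercuric chloride raised HAS2, a hyaluronan synthase, which had 36 counts against 0 with vehicle. With the 6 vehicle libraries set to 3 counts together the ratio was 47.6, a value that leaves out counting error. HAS2 had 0 counts with vehicle and so passed the filter on low counts only through other libraries. These may be the mercuric chloride libraries themselves, and no value without a filter is given here. Mercuric chloride also raised ADAM17 (0.60) and lowered HYAL2 (-3.12) and ADAM10 (-0.53), where 41.9% of all genes were called. In each of these 5 lists no gene was called with the other chemicals.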

How the data were processed

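RNA of 48 THP-1 libraries was profiled. Per the labels' protocols, 500 ng of total RNA entered a Lexogen Quant-Seq kit. The authors deposited whole-number counts per gene symbol, 25737 rows a library. Bowtie2, bedtools and hg19 (GRCh37) appear in the submitters' processing notes. Their versions, the annotation and the strand setting are not given there. Rows of 286 repeated symbols were summed (1.36% of counts); each member has 1 row. Groups come from the labels, which name no separate cultures, and the spread behind each p-value is thus one between libraries that may be technical. No pair of libraries in a group was identical (chi-square to degrees of freedom 2.13 to 43.1).

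The test was edgeR 4.0.16 (R 4.3.3), quasi-likelihood, TMM scaling, filterByExpr, 1 fit of 48 libraries in 16 groups (32 residual degrees of freedom), with Benjamini-Hochberg adjustment over 15642 genes. Each chemical was set against both vehicle series and kept the larger p, or 1 where the signs differed. SE is the mean change over the square root of its F. It does not cover the difference between the series. DESeq2 1.42.0, limma-voom (limma 3.58.1), other scalings, no filter, other control sets and leaving out each library were alternatives. The procedure was tested on simulated data. All 9 members are named; other genes by likeness to a member and from the lists. Members and lists were chosen with earlier results of these data known. Depth was 5.95 to 11.5 M (mega-counts) a library, and intervals of count ratios cover counting error only. Intervals of log2 differences come from the edgeR fit and cover the spread between libraries.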

Additional observations from a re-analysis of the deposited data

How the results depend on the processing

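The count of 15 calls over the 12 chemicals depends most on the control: it was 41 against vehicle series 2 alone and 31 against vehicle series 1 alone. The gene most often added was ITGAX against series 2 and ITGA4 against series 1, and both differ between the series. The count was 14 to 16 when each library was left out and 15 to 19 in the other alternatives. Shares of all genes called in these settings are not given here, so the counts cannot be set against them. Differences between the control series numbered 4 to 5 when each library was left out, differences within chemical pairs 4 to 7, and vehicle against untreated stayed at 0. ICAM1 with LPS was 6.41 to 6.93 when each library was left out and 6.30 to 7.24 over all alternatives. Over 26 called results and 452 values, none changed sign, 32 lost the call, and 17 results never did. Same-numbered libraries did not deviate together (r -0.22 to 0.14 in 24 comparisons), so the numbers were not taken as pairs. With the replicate block the count was 15 over the chemicals and 5 within the pairs. Leaving out the scaling shifted log2 changes with mercuric chloride by about -0.40, and its 5 called members kept sign and call. ICAM1 outside LPS and mercuric chloride rests on 0 to 10 counts a library.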

Other observations

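The control series differed in genes around the 9 members too, and the differences are given as values. Of 8 enzymes of selectin ligand synthesis, 5 were lower and 1 higher in control series 2 than in series 1, where 30.1% of all genes differed, with FUT4 at -0.54 on the log2 scale (adjusted p = 6.99e-09), TPST2 at -0.49 (adjusted p = 0.000913) and B4GALT1 at 0.29 (adjusted p = 0.00408). Of 17 genes of integrin activation, 5 were higher and 5 lower, among them RDX at 0.60 (adjusted p = 1.81e-08) and ZYX, a focal adhesion protein, at -0.85 (adjusted p = 6.00e-08). ZYX was also lower with cyclosporine than with tacrolimus, by -0.99 on the log2 scale (95% interval -1.31 to -0.67, adjusted p = 7.92e-06), and FUT4 by -0.66 (-0.85 to -0.48, adjusted p = 5.03e-07). Both differences have the sign of series 2 minus series 1, so chemical and control series cannot be told apart for these genes either.

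ITGB2-AS1, the antisense transcript of ITGB2, rose with dexamethasone as well, to 8.10 ± 1.02 CPM (SD, n = 3; log2 fold change 1.12, SE 0.28, adjusted p = 0.0332), and was at 8.35 ± 1.02 CPM with tofacitinib (1.16, adjusted p = 0.0645). ICAM4, which lies within 1 kb of ICAM1 on the same strand, was at 1.01 ± 0.645 CPM with LPS (33 counts). It was at 1.04 ± 1.09 CPM with mercuric chloride (15 counts). Vehicle series 2 held 0.495 ± 0.126 CPM and vehicle series 1 0.469 ± 0.660 CPM (SD, n = 3 each), 27 counts together. The log2 fold changes of 1.08 with LPS and 1.10 with mercuric chloride were not called (adjusted p = 0.993 and 0.482).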
